A study of Mus musculus with 9 samples.

Results

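The genes of the cytosolic ribosome were followed through mouse bone marrow. They were taken by symbol: every symbol made of Rpl or Rps and a number, together with Rplp0, Rplp1, Rplp2 and Rpsa, leaving out the Rps6k kinases, symbols that mark a pseudogene with -ps and symbols ending in l1. The rule gave 86 of the 15265 genes listed in the 9 count tables, 50 with large subunit (Rpl) and 36 with small subunit (Rps) symbols. It also took in Rps19bp1, which encodes a protein that binds Rps19 and is not itself a ribosomal protein, and several little-used copies of other members.

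The cytosolic ribosome is built from ribosomal RNA and a set of proteins that assemble into a small subunit, which reads the messenger RNA, and a large subunit, which joins amino acids. Messenger RNAs of these proteins are among the most abundant in growing cells, and most begin with a stretch of pyrimidines, the 5' terminal oligopyrimidine tract, through which their translation is regulated together. In marrow, inherited loss of a single copy of one of several ribosomal protein genes causes Diamond-Blackfan anaemia, a failure of red cell production, and protein synthesis is known to fall as neutrophils mature.

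The cells came from unsorted marrow of young C57BL/6 mice, 2 to 3 weeks old, and their RNA was captured in droplets by Drop-seq, in which beads mark the 3' ends of transcripts with a barcode for each cell. NG2-cre/Pot1a wt/wt mice gave 5 libraries and NG2-cre/Pot1a fl/fl mice gave 4. The labels do not tie libraries to animals, and with 3 mice per group in the study's legend some libraries may share a mouse, so p-values measure the spread between libraries. Both groups carry NG2-cre, which places Cre under the NG2 (Cspg4) promoter, used here to reach mesenchymal cells, and they differ in whether the Pot1a gene, which encodes a telomere-binding protein, is flanked by recombination sites. Nearly all of the cells measured were blood cells, in which this promoter is not known to be active.

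Each library held 100 barcodes and 119459 to 465277 counts, 2616983 in all, and 899 of 900 barcodes were kept. Libraries Pot1a wt/wt 2 and 3 shared 19 barcodes, the only pair of 36 that shared any. Pot1a itself had 59 counts in all, 1 to 15 per library, and none in the 29 cells of the mesenchymal cluster, so the deletion could not be checked. Cspg4 had 8 counts in all, 2 of them in the mesenchymal cluster, too few to say which cells use its promoter. Clusters were built without the ribosomal protein genes and called by the class whose markers led them (promyelocyte-like and so on, shortened below). They gave 228 B lineage, 257 granulocyte, 160 erythroid, 63 monocyte/macrophage and 29 mesenchymal cells, while 95 cells led by Mt2 and Fam132a and 67 cells led by Mcpt8 and Eif4h stayed unnamed. The cluster called pre-B and immature B held as many pro-B as pre-B markers, 3 of each, among its 50 leading genes, and interferon-induced Isg15 and Rsad2 were among the leading genes of the globin-rich erythroid cluster.

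The starts of 5 of the genes are shown because their levels set them apart in the comparisons that follow: from promyelocytes to late neutrophils Rps9 and Rps10 fell less than the sum of the set, and Rps2, Rps4x and Rps18 fell more. The differences of Rps10 and Rps4x were lost when some single libraries were left out. Rps14, Rps19, Rpl14 and Rps26 also differed from the sum, and their starts are not shown. The sequences are from RefSeq (GRCm38.p6), run 5' to 3' on the strand of the gene from 60 bases before to 20 bases after the start of transcription, and have in capitals any unbroken run of at least 8 pyrimidines (C or T) that touches the window from 10 bases before to 20 bases after the start. Rps9 lies on the plus strand at chr7:3703981-3704060, Rps10 on the minus strand at chr17:27635225-27635304, Rps18 on the minus strand at chr17:33955646-33955725, Rps2 on the plus strand at chr17:24720003-24720082 and Rps4x on the minus strand at chrX:102189372-102189451.
Rps9: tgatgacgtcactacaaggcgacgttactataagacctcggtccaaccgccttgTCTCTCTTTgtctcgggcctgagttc
Rps10: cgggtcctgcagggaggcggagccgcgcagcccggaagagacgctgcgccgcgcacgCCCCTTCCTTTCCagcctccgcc
Rps18: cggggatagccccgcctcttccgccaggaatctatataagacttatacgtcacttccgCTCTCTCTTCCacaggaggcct
Rps2: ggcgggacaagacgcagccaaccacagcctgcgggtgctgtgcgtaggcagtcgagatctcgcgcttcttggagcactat
Rps4x: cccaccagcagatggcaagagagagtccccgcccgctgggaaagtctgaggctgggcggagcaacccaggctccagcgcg

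Rps10, Rps18 and Rps9 held runs of 13, 11 and 9 pyrimidines over the start, whereas the longest run was 6 in Rps2 and 4 in Rps4x. Of the 63 genes of the set with a RefSeq promoter in the table, 23 (36.5%) held a run of at least 8 in that window, against 13% of all 27025 genes in the table, and 9 (14.3%) held a run of at least 12, against 2.51%. The hexamer CGGAAG, the core bound by ETS factors such as GABP, was present on either strand of the 300 bases around the start in 44 of the 63 (69.8%) and in 18.8% of all genes. GCCATNTT, the core bound by YY1, was present in 11 (17.5%) against 6.96%, and TATAAA in 6 (9.52%) against 15.7%. Of the 5 genes printed, Rps10, Rps18 and Rps2 held CGGAAG and Rps9 and Rps4x did not. These are matches of letters and were not tested as binding sites. The starts are those of RefSeq, and the starts used in these cells were not measured. A window without a run of 8 therefore does not show that a gene lacks a 5' terminal oligopyrimidine tract.

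The 86 genes held 259289 counts, 9.91% of all counts in the kept cells, and the 10 highest held 32.3% of these. The levels below are CPM, counts scaled to the same total in each library. Drop-seq counts 3' ends, so the values were not divided by transcript length. The 2 highest were Rpl41, the smallest ribosomal protein, at a mean of 3694 CPM and Rpl22, a large subunit protein, at 3626 CPM. Rpl41 ranged from 3156 to 4713 CPM over the 9 libraries and Rpl22 from 2732 to 4751 CPM, so the order of these genes was within their spread. They were followed by Rps26 (3468), Rps24 (3391), Rpl4 (2939), Rps9 (2934), the acidic stalk protein Rplp1 (2903), Rpl13a (2900), Rplp2 (2825) and Rps3 (2820). The median gene of the set had 2025 counts over the 9 libraries.

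At the other end, 12 genes had fewer than 100 counts over the 9 libraries. Some of these are parts of every ribosome: Rps6 had 58 counts, Rpl10 69, Rps27 53, Rpl28 64, Rpl9 87 and Rpl15 98. The remainder were copies: Rpl3l, a striated muscle form of Rpl3, stood at a mean of 5.26 CPM against 762 CPM for Rpl3, and Rpl39l, a form known from testis, had 1 count against 5474 for Rpl39. Rpl10l, also a testis form, stood at 1.36 CPM, beside 30.2 CPM for Rpl10. The order was turned for another pair of copies, with Rps27l, a copy induced by p53, at 572 CPM and Rps27 at 20.9 CPM. Rpl36al stood at 574 CPM and Rpl36a at 221 CPM, and Rps4y2 at 31.3 CPM beside Rps4x at 1236 CPM.

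Many of the genes share much of their 3' end with other genes. In the last 300 coding bases and 50 bases beyond them, 100% of the words of 50 bases of Rpl10, Rpl9, Rpl5, Rpl12, Rps23 and Rpl36a were also found in transcripts of other genes, and 98.6% of those of Rps27. The median share was 87.6% over the 31 genes with fewer than 1000 counts and a coding transcript, and 67.9% over the 52 genes with at least 1000 counts, none of which reached 100%. The 9 genes under 100 counts had a median of 84.4%, and the 22 with at least 100 and fewer than 1000 had 88.6%. Those 9 hold both parts of every ribosome and copies such as Rpl3l and Rpl39l. Rps6 shared 85.8%, Rpl28 and Rpl15 84.4% each, and Rpl3l and Rpl39l none. The shares of the highest genes were 25.2% for Rpl41 and 34.2% for Rpl22. How reads placed at several sites were counted is not given in the sources used here, so the levels of genes with shared ends are uncertain, and the part of this sharing in the levels was not tested. Symbols marked -ps, left out by the rule, held 3167 counts, between 0.072% and 0.222% of a library.

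**Figure D1:**
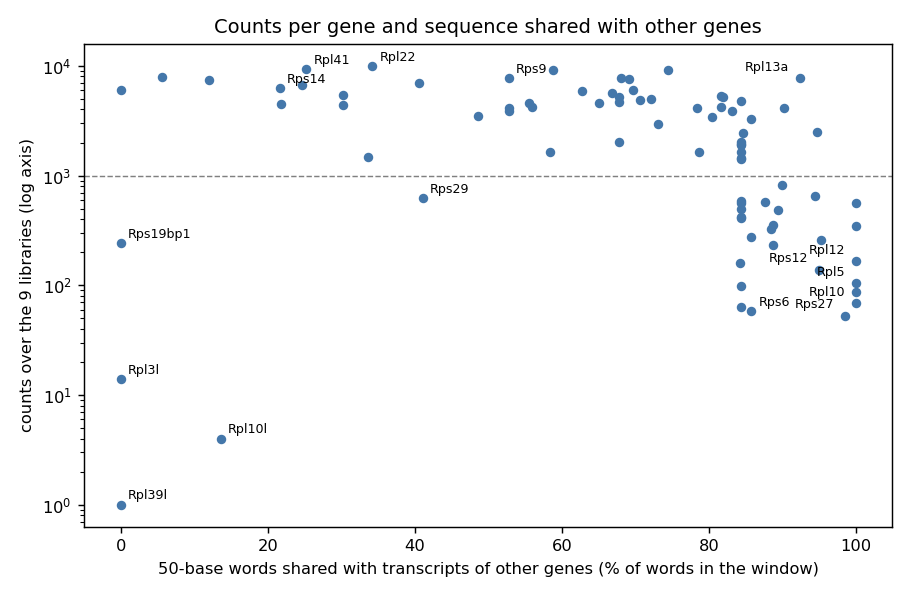
Counts of each ribosomal protein gene summed over the 9 libraries (log axis) against the percentage of 50-base words at its 3' end that occur in transcripts of other genes, 1 point for each of the 83 genes with a coding transcript; the dashed line marks 1000 counts. The 6 genes at 100% all lie under the line, and 3 genes with fewer than 1000 counts, among them Rpl3l and Rpl39l, shared no word.

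In whole marrow the summed share of counts was 8.16, 9.84, 10.3, 10.8 and 9.96% in Pot1a wt/wt libraries 1 to 5, and 9.68, 10.1, 10.5 and 9.88% in Pot1a fl/fl libraries 1 to 4. The lowest library was Pot1a wt/wt 1, and the groups overlapped. By lineage the mean share over libraries was 11.4% ± 1.48 (SD, n = 9) in B lineage cells, 10.1% ± 2.11 (n = 9) in erythroid cells, 8.23% ± 1.4 (n = 8) in monocytes/macrophages and 6.03% ± 1.5 (n = 9) in granulocytes. Libraries also differed within a lineage, from 3.77 to 8.39% in granulocytes. Within libraries, granulocytes stood below B lineage cells in 9 of 9 and below erythroid cells in 8 of 9, monocytes/macrophages below B lineage cells in 8 of 8, and erythroid cells below B lineage cells in only 6 of 9. These shares are given without a test, since they are sums over a chosen set.

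Along the granulocyte series the share was 11.9% ± 1.24 in promyelocytes (n = 6), 3.32% in myelocytes (n = 9) and 1.37% ± 0.24 in late neutrophils (n = 5). The 6 promyelocyte values lay between 10.9 and 14.3%, the 9 myelocyte values between 2.46 and 4.04% and the 5 late neutrophil values between 1.17 and 1.69%, so that the stages did not overlap. With each cell assigned by its own markers, late neutrophils were left in 2 libraries and had a mean of 4.53%. In counts, the median promyelocyte held 394 ribosomal protein counts of 3218, the median myelocyte 54.5 of 2228 and the median late neutrophil 18 of 1477. Each library with both stages showed the same order: 6 of 6 for myelocytes under promyelocytes and 5 of 5 for late neutrophils under myelocytes.

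In the B lineage the share was 13.3% ± 1.88 in pro-B cells and 9.46% ± 1.45 in pre-B and immature B cells (n = 9 each), lower at the later stage in 9 of 9 libraries. The later cluster held as many pro-B as pre-B markers. With each cell assigned by its own markers, the share differed much less between these stages, as given below. In the erythroid lineage the share was 11.9% ± 1.29 in early cells and 5.78% ± 2.08 in globin-rich cells (n = 8 each), lower in 8 of 8 libraries. The globin-rich values spread from 2.29% in Pot1a wt/wt 1 to 9.13% in Pot1a wt/wt 3. Globin took 24.3% of the counts of globin-rich cells, and with globin and mitochondrial genes left out their pooled share was 8.45%, against 13.1% in early cells. The highest share of any cluster was 15.2% ± 1.46 (n = 9), in the unnamed cells led by Mt2 and Fam132a, whose 10 leading genes include the early erythroid marker Car1. These cells also had the most counts (median 3784 per cell), and late neutrophils and mesenchymal cells (3.29% ± 1.34, n = 3) the fewest, so that depth moved with the share. Its part in the result was not tested.

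**Figure D2:**
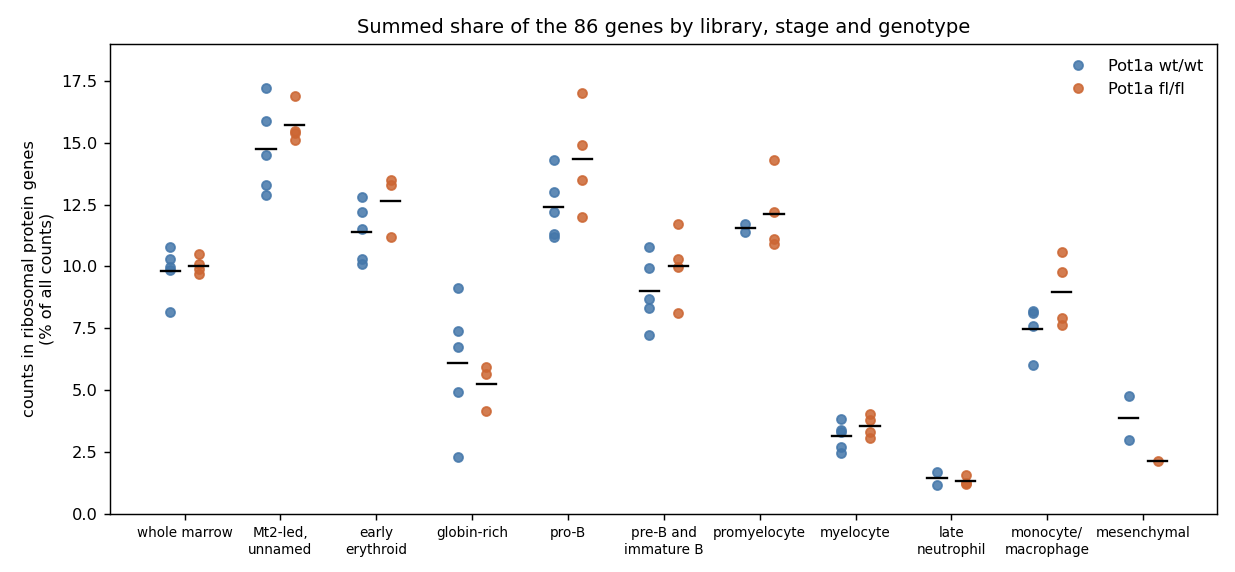
Percentage of a library's counts that fell on the 86 ribosomal protein genes, for whole marrow and for each stage or cluster; each point is 1 library with at least 5 cells of that kind, blue for Pot1a wt/wt and orange for Pot1a fl/fl, and bars are group means. Late neutrophils (1.17 to 1.69%) and myelocytes (2.46 to 4.04%) lie below all promyelocyte libraries (10.9 to 14.3%), while the points of the genotypes overlap except in the 3 mesenchymal libraries. The cells led by Mcpt8 and Eif4h are not drawn.

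Each gene was then compared between a lineage and the mean of the other 3 lineages, with counts summed per library and lineage and the library kept as a block (edgeR quasi-likelihood test, Benjamini-Hochberg adjusted over all 2251 genes tested). Of the 86 genes, 69 passed the filter on low counts. In erythroid cells 32 of the 69 rose and none fell, where 24.7% of all genes rose and 30.1% fell (54.9% in all), and the median log2 fold of the set was 0.34 against -0.07 over all genes. Rps2, at the mRNA entry side of the small subunit, rose by 0.94 ± 0.13 (log2 ± SE, adjusted p = 3.66e-09), Rplp0, the base of the stalk that recruits elongation factors, by 0.82 ± 0.12 (9.2e-09) and Rpl23a by 0.95 ± 0.27 (0.00191). Rps2 stood between 1585 and 4260 CPM in the 9 erythroid libraries, with the highest value in Pot1a fl/fl 2, which held only 6 such cells. The count of 32 was 20 without Pot1a wt/wt 1, 19 without Pot1a wt/wt 3 and 15 with sums of at least 10 cells, and without the filter 16 rose and 1 fell.

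In B lineage cells 27 of the 69 rose and none fell, against 22.5% of all genes that rose and 19.9% that fell (42.4% in all), with a median of 0.32 against 0.05. Rpl18 rose by 0.54 ± 0.14 (adjusted p = 0.000779) and Rpl3, at the peptidyl transferase centre, by 0.50 ± 0.14 (0.00266). The called genes lay close together, down to 0.29 for Rpl13a and 0.30 for Rpl41. The scaling and the assignment of cells moved the count of 27, to 63 with library totals in place of TMM, 8 with DESeq2 size factors and 3 with each cell assigned by its own markers, and without Pot1a wt/wt 3 or Pot1a fl/fl 4 it was 18.

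In monocytes/macrophages 34 of the 69 fell and none rose, against 14.6% of all genes that fell and 17.1% that rose (31.7% in all), with a median of -0.47 against -0.16. Rpl23a fell by 1.32 ± 0.43 (adjusted p = 0.0119) and Rpl36a by 1.10 ± 0.37 (0.0156). Both have few counts and ends shared with other genes. In granulocytes 7 of the 69 fell, where 8.93% of all genes fell and 24.1% rose (33.1% in all). That count lies near the share of all genes that fell, so it does not set the ribosomal protein genes apart. The 7 were led by Rps26 at -0.62 ± 0.13 (adjusted p = 7.33e-05), Rplp1 at -0.46 ± 0.13 (0.00391) and Rpl41 at -0.45 ± 0.13 (0.00423). The median was -0.14 against 0.06. With library totals in place of TMM 62 fell in granulocytes and 2 in monocytes/macrophages, and with DESeq2 size factors 12 and 14. The granulocyte count of 7 was 3 without Pot1a wt/wt 3 and 11 without Pot1a wt/wt 4 or 5, and the monocyte/macrophage count of 34 was 22 without Pot1a fl/fl 4.

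Stages of one lineage were compared in the same way. Of the 64 genes of the set tested among 1349 genes in all, 58 fell from promyelocytes to myelocytes and none rose, where 18.8% of all genes fell and 20.7% rose (39.5% in all), and the median was -1.02 against 0.08. From promyelocytes to late neutrophils 60 fell and none rose, where 33.6% of all genes fell and 12.6% rose (46.2% in all), and the median was -2.70 against -0.92. With the 3 genes at 0 counts put at their bounds the median was -2.67. Both contrasts use the same promyelocyte libraries. The counts held at 52 to 60 and 56 to 63 with any 1 library left out.

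Rps2 fell most in myelocytes, by 1.81 ± 0.22 (adjusted p = 3.96e-11). It stood at 2250, 2315, 2469, 2378, 2797 and 1995 CPM in the 6 promyelocyte libraries, from 95.4 to 918 CPM with a median of 283 CPM in the 9 myelocyte libraries, and at 0, 139, 90.9, 0 and 0 CPM in the 5 late neutrophil libraries. Promyelocyte libraries lay above all others, while the highest late neutrophil libraries overlapped the lowest myelocyte libraries. Rps29 fell by 1.76 ± 0.37 (5.25e-05) and Rpl11, which with Rpl5 forms the 5S particle that binds Mdm2, by 1.73 ± 0.45 (0.00108). Both have few counts. Relative to the sum of the set, as compared below, neither was called (edgeR, Rps29 -0.75, adjusted p = 0.0708, Rpl11 -0.76, 0.134). The smallest falls that passed the test were those of Rpl35a (-0.57 ± 0.17, adjusted p = 0.00508), Rps28 (-0.66 ± 0.24, 0.0203) and Rps15 (-0.69 ± 0.20, 0.00262).

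Rps9, a small subunit protein that helps keep decoding accurate, was the gene that fell least in late neutrophils, by 0.88 ± 0.25 (adjusted p = 0.0028). It stood at 3314, 2720, 3052, 3287, 4630 and 2591 CPM in promyelocytes, from 1260 to 2663 CPM with a median of 1437 CPM in myelocytes, and at 902, 1389, 1726, 1103 and 1056 CPM in late neutrophils. Every late neutrophil library lay below every promyelocyte library, while late neutrophils and myelocytes overlapped. The call was lost without Pot1a wt/wt 1 (-0.55, adjusted p = 0.0826), without Pot1a fl/fl 1 (-0.69, 0.0633) and with DESeq2 size factors (-0.02, 0.986), a scaling under which the median of all genes moved from -0.92 to -0.15 and that of the set from -2.70 to -1.87.

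Pooled counts use neither TMM nor size factors, but they take total counts as the scale and so do not settle the choice of scaling. For late neutrophils they cover all 9 libraries, also those with fewer than 5 cells that the fit left out. Late neutrophils held 84 Rps9 counts of 74960 and promyelocytes 757 of 242507, a 2.79-fold difference in level (95% counting interval 2.22 to 3.53). The same ratio was 3.44 (2.34 to 5.27) for Rps10 and 4.72 (3.47 to 6.59) for Rps14, but 14.5 (9.59 to 22.9) for Rpl22, 16.5 (10.1 to 29) for Rps26, 23.6 (11.9 to 54.8) for Rps18 and 34.5 (14.7 to 107) for Rps2, from 5 counts. Rpl36a, Rpl7a and Rpl10a had none, which against a floor of 3 counts over the group puts them at least 6.49-fold, 5.67-fold and 3.4-fold lower. The intervals cover counting error only.

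**Figure D3:**
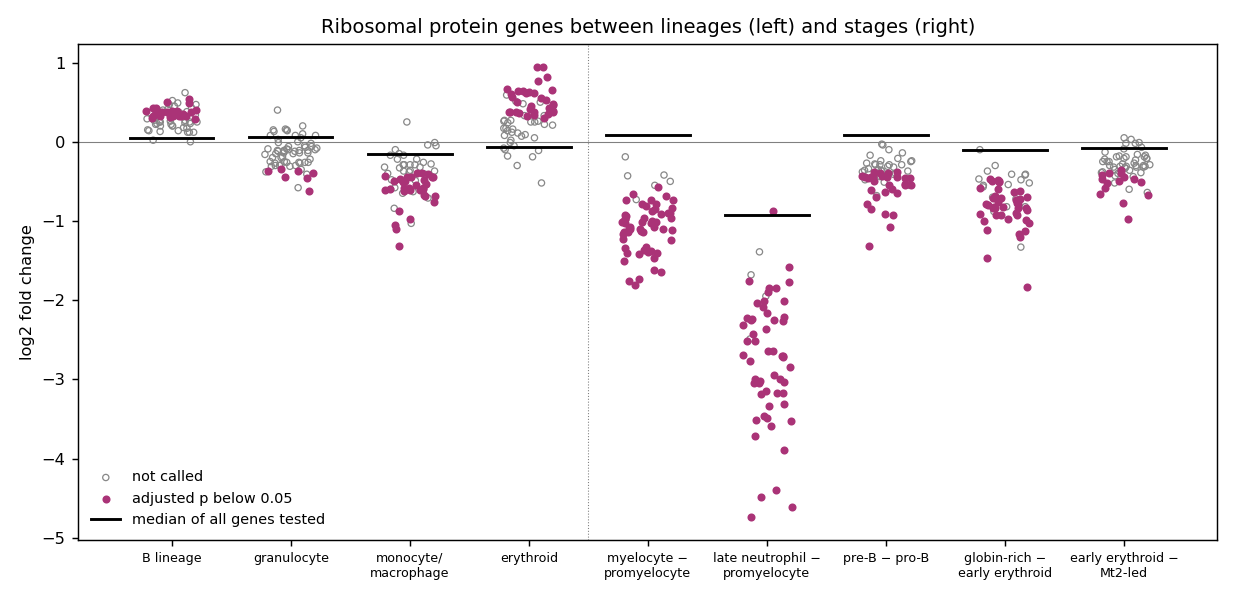
Log2 fold change of the ribosomal protein genes tested and reported here, for 4 lineages against the mean of the other lineages and for 5 pairs of stages; filled points passed an adjusted p of 0.05, open points did not, and bars are medians over all genes tested. Rpl10a, Rpl36a and Rpl7a, without a count in late neutrophils, are left out of that column. In all 4 columns of named stages to the right of the dotted line, every point lies below 0.

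To see which genes departed from the set, the stages were compared again with the summed ribosomal protein count as the library size, so that a value of 0 means a change like that of the sum. Against late neutrophils, 9 of the 64 departed, 3 up and 6 down. Over all genes tested, most of which lie outside the set, 44.8% were called up and 1.26% down on this scale (46.1% in all). Rps9 rose by 1.74 ± 0.23 (adjusted p = 6.01e-10), Rps10, near the mRNA entry of the small subunit, by 0.96 ± 0.34 (0.0346) and Rps14 by 0.80 ± 0.26 (0.0208). Rps2 fell by 2.24 ± 0.60 (0.0012), Rps4x by 2.19 ± 0.67 (0.0115) and Rps18 by 1.93 ± 0.51 (0.0027), with Rps19, Rpl14 and Rps26 the other 3 that fell.

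The departures of Rps9 (1.52 to 1.82), Rps2 (-3.12 to -1.93) and Rps18 (-3.29 to -1.60) were called with each single library left out and with Pot1a wt/wt 2 and 3 taken as 1 library. The departure of Rps2 rests on very few counts, with none in most of the late neutrophil libraries compared. Those of Rps10 and Rps14 were lost when Pot1a wt/wt 1 was left out (0.76, adjusted p = 0.217, and 0.69, 0.124), and also without Pot1a fl/fl 1 for Rps10 and without Pot1a fl/fl 4 for Rps14. That of Rps4x, which rests on 2 counts in the libraries compared, was lost with Pot1a wt/wt 2 and 3 taken as 1 library (-1.39, 0.0543) or without Pot1a wt/wt 1 or Pot1a fl/fl 1. The windows of Rps9 and Rps14 share 52.8% and 21.6% of their words with other genes, that of Rps10 73.1%, and those of Rps2, Rps18 and Rps4x 81.7%, 81.9% and 80.4%. The part of this sharing in the departures was not tested.

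**Figure D4:**
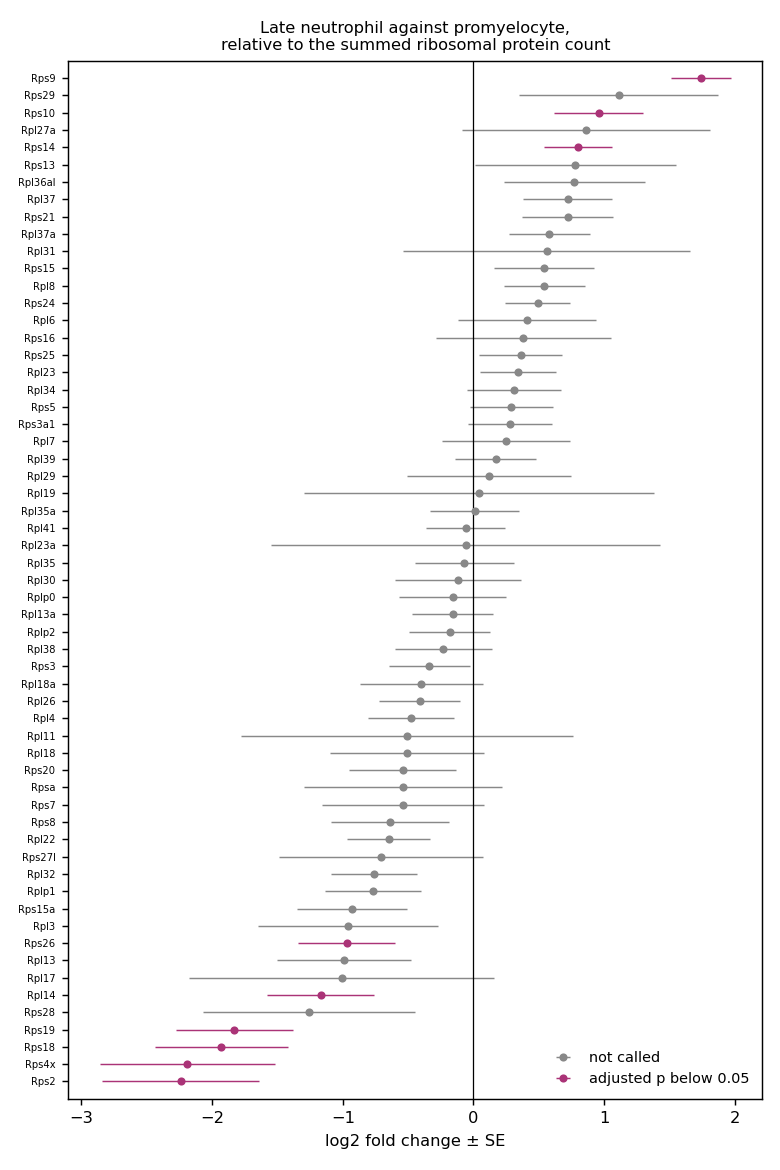
Log2 fold change (± SE) of the ribosomal protein genes reported here from promyelocytes to late neutrophils on the scale of the summed ribosomal protein count, ordered by value; coloured points passed an adjusted p of 0.05. Rps9 (1.74), Rps10 (0.96) and Rps14 (0.80) lie above 0, Rps2 (-2.24), Rps4x (-2.19) and Rps18 (-1.93) below; Rpl10a, Rpl36a and Rpl7a, without a count in late neutrophils, are not drawn.

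The same pair headed the departures in myelocytes, which share the promyelocyte libraries: Rps9 rose by 0.87 ± 0.16 (adjusted p = 1.97e-06) and Rps2 fell by 0.79 ± 0.20 (0.000455), among 2 up and 4 down of 64, where 58.3% and 3.93% of all genes were called up and down (62.3% in all). Each lineage was compared with the mean of the others, so the contrasts between lineages are not independent of each other. Between lineages the pair lay the other way round in erythroid cells, where Rps2 rose by 0.62 ± 0.12 (1.21e-05) and Rps9 fell by 0.50 ± 0.11 (0.000147) relative to the sum, among 9 up and 9 down of 69 (14.4% and 40.1% of all genes, 54.5% in all). In monocytes/macrophages Rps2 fell by 0.62 ± 0.16 (0.00119) and Rps9 rose by 0.34 ± 0.12 (0.0274), among 3 up and 2 down (24.9% and 4.71% of all genes, 29.6% in all). The pair was followed from the granulocyte stages, and between lineages other genes departed further than Rps9. Rpl37a (0.44, 0.00731) and Rps24 (0.42, 0.0061) rose more in monocytes/macrophages, and Rpl36al (-0.64, 0.0012) fell more in erythroid cells. The rise of Rps9 in monocytes/macrophages was lost when any of 5 single libraries was left out.

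Levels of the pair by cluster, from the same counts, are given in CPM. The median over libraries was 3169 for Rps9 and 2347 for Rps2 in promyelocytes, 1103 and 0 in late neutrophils, 3025 and 1240 in monocytes/macrophages, 3872 and 2699 in pro-B cells, and 2629 and 1363 in pre-B and immature B cells. It was 2856 and 3022 in early erythroid cells, and 4227 and 3537 in the cells led by Mt2 and Fam132a. In early erythroid cells the median of Rps2 was the higher of the pair, and the ranges overlapped (2603 to 3415 for Rps9 and 2234 to 3669 for Rps2).

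Granulocytes as a whole had 6 departures of 69, where 30.2% of all genes were called up and 5.06% down (35.3% in all). Rps26, which binds mRNA upstream of the start codon at the exit side, fell by 0.46 ± 0.11 relative to the sum (adjusted p = 0.000544), Rpl41 by 0.29 ± 0.11 (0.0364) and Rplp1 by 0.29 ± 0.12 (0.0426), while Rpl38 and Rpl32 rose by 0.32 each. In B lineage cells none of the 69 departed, with 2 at an unadjusted p under 0.05 (edgeR; 40.2% of all genes were called, 12.4% up and 27.9% down).

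From pro-B to pre-B and immature B cells 32 of 64 fell and none rose, against 13.8% of all genes that fell and 16.4% that rose (30.2% in all), with a median of -0.43 against 0.08. Rpl36a fell by 1.31 ± 0.34 (adjusted p = 0.00165) and Rps29 by 1.08 ± 0.26 (0.000804). Rpl36a stood at a median of 393 CPM (71 to 526) in pro-B and 119 CPM (19.5 to 285) in pre-B and immature B libraries, and Rps29 at 414 CPM (213 to 790) and 190 CPM (0 to 331), with overlap for both. The count fell to 10 without Pot1a fl/fl 4, to 20 without Pot1a fl/fl 3, and to 0 when each cell was assigned by its own markers, an assignment that gave shares of 11.4 and 10.9% for these stages. Relative to the sum, Rpl36a (-0.91), Rps29 (-0.70), Rps2 (-0.51) and Rpl38 (-0.43) fell further and none rose, where 34% of all genes were called up and 5.04% down (39.1% in all).

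From early to globin-rich erythroid cells 46 of 64 fell and none rose, against 9.71% of all genes that fell and 7.64% that rose (17.3% in all), with a median of -0.76 against -0.11. Rpl10a fell by 1.83 ± 0.60 (adjusted p = 0.0221) and Rpl11, a Diamond-Blackfan anaemia gene, by 1.47 ± 0.49 (0.0255). Both have few counts, and neither was called relative to the sum (edgeR, Rpl10a -1.15, adjusted p = 0.153, Rpl11 -0.76, 0.257). The smallest falls called were those of Rps15a (-0.47), Rps14 (-0.48) and Rps3a1 (-0.50). Rps2 went from a median of 3022 CPM (2234 to 3669) to 1043 CPM (304 to 2391), with overlap in the top of the lower group. Leaving out globin and mitochondrial genes gave 49, but clusters built without integration of the libraries gave 7, and the count was 30 without Pot1a fl/fl 1. Relative to the sum, Rps18 fell by 0.54 ± 0.18 (0.0129) and Rps3 rose by 0.44 ± 0.16 (0.0233), where 30.2% of all genes were called up and 1.48% down (31.7% in all). Neither was called without Pot1a wt/wt 1, and the rise of Rps3 was also lost without Pot1a fl/fl 1 or Pot1a fl/fl 3.

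Between early erythroid cells and the cells led by Mt2 and Fam132a, a comparison chosen after seeing the data, 15 of 64 were lower in early erythroid cells and none higher, against 12.9% of all genes that were lower and 12.3% that were higher (25.2% in all), with a median of -0.32 against -0.08. Rpl7a was lower by 0.97 ± 0.29 (adjusted p = 0.0089), Rpl18 by 0.77 ± 0.18 (0.000565) and Rpl36al by 0.67 ± 0.22 (0.0151). Relative to the sum, Rpl18 (-0.48) and Rpl37a (-0.37) were lower, where 18.8% of all genes were called higher and 6.6% lower (25.4% in all). The call of Rpl18 was lost when any 1 Pot1a wt/wt library was left out, and that of Rpl37a when any 1 library other than Pot1a wt/wt 3 was. The count of 15 was 4 to 11 with any 1 library left out, and 2 with sums of at least 10 cells.

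The genes were also split by shared sequence, a choice made after seeing the data. In late neutrophils 13 of 14 genes with under 50% of words shared fell (median -2.51), and 47 of 50 of the others (median -2.71), beside 33.6% of all genes. In globin-rich cells the numbers were 10 of 14 and 36 of 50, beside 9.71%, and in pre-B and immature B cells 9 of 14 and 23 of 50, beside 13.8%. The difference between the parts was not tested.

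Genes of both subunits and of the stalk fell. From promyelocytes to myelocytes 32 of 37 large subunit genes fell (median -1.10) and 26 of 27 small subunit genes (median -0.98), all 3 stalk genes Rplp0, Rplp1 and Rplp2 (median -1.38), and 15 of 16 Diamond-Blackfan anaemia genes tested (median -1.10). Among genes outside the set, 12 of 17 translation factors and other genes with a pyrimidine tract, such as Eef1a1, fell in the same contrast (median -1.01), whereas 1 of 8 mitochondrial ribosomal proteins did (median -0.00). In late neutrophils these numbers were 15 of 17 (median -2.38) and 5 of 8 (median -2.33). In globin-rich cells 7 of 17 translation factors fell (median -0.63) and 1 of 8 mitochondrial ribosomal proteins (median -0.76), and in pre-B and immature B cells 8 of 17 (median -0.41) and 1 of 8 (median -0.23). The share of all genes that fell is given above with each contrast. In myelocytes, globin-rich cells and pre-B and immature B cells, 1 of 8 lies near that share. Of the 14 regulators listed, among them Myc and Mtor, only 1 was deep enough to be tested between stages, and it was called in none of the 4 contrasts of named stages.

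The question of the study's design was whether marrow with Pot1a deleted in NG2-expressing stroma differs from control marrow. In whole marrow none of the 76 ribosomal protein genes tested was called between genotypes (edgeR, adjusted p; 0.0658% of all 4559 genes were called), and 2 had an unadjusted p under 0.05. The groups did not overlap for 0 of the 76, where 2.35% of all genes did not. The median log2 fold was 0.11 with 62 of 76 above 0, beside 0 over all genes, and without Pot1a fl/fl 3 the median was 0.04. DESeq2 also called 0. In these sums, fewer cells of a type and less RNA per cell cannot be told apart.

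Rps28, a small subunit protein near the mRNA exit, had the most positive fold, 0.76 ± 0.33 (adjusted p = 0.547). It stood at 803, 414, 287, 636 and 523 CPM in Pot1a wt/wt libraries 1 to 5 and at 565, 740, 1498 and 706 CPM in Pot1a fl/fl libraries 1 to 4. The high value is that of Pot1a fl/fl 3, the shallowest library, and the other 3 lie within the range of the controls. Rpl17 followed at 0.55 ± 0.26 (adjusted p = 0.614), with 175, 241, 256, 199 and 237 CPM against 243, 213, 511 and 307 CPM, again highest in Pot1a fl/fl 3. The most negative folds, of Rpl24 (-0.34 ± 0.33), Rps29 (-0.20 ± 0.24) and Rpl22 (-0.19 ± 0.21), were no larger than about their errors.

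**Figure D5:**
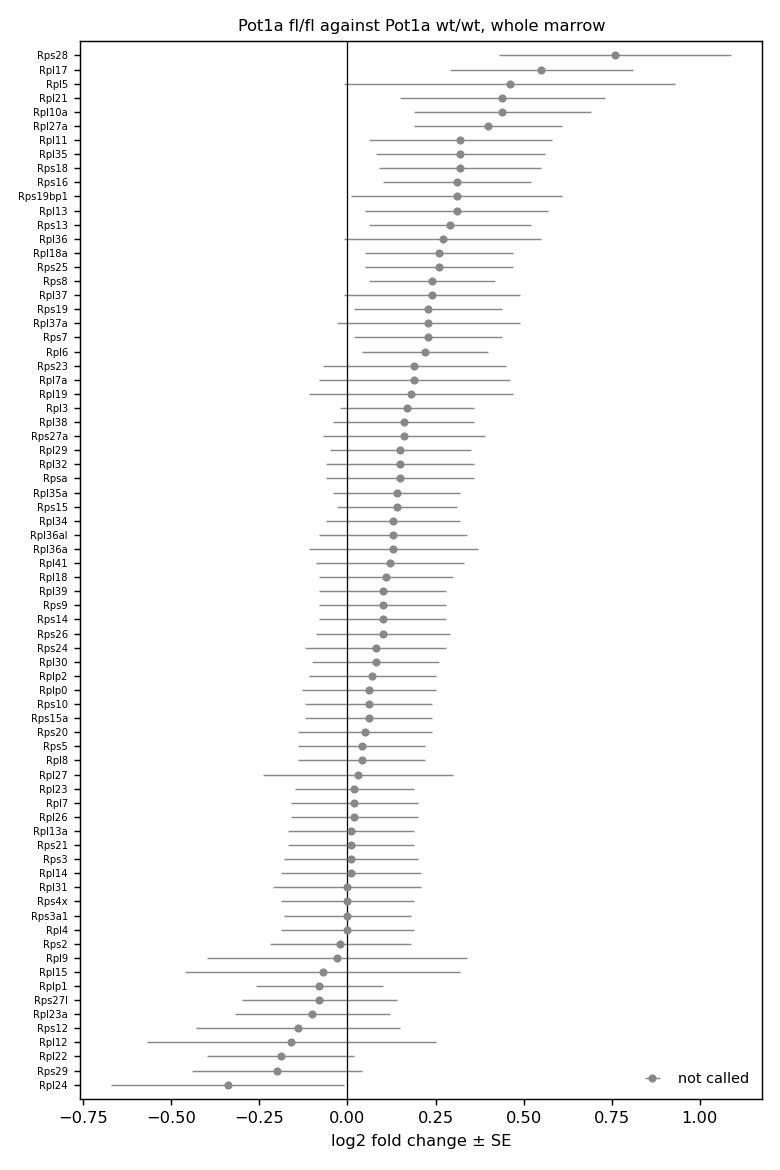
Log2 fold change (± SE) of the ribosomal protein genes tested in whole marrow and reported here, Pot1a fl/fl (4 libraries) against Pot1a wt/wt (5 libraries), ordered by value; no gene passed an adjusted p of 0.05. Rps28 (0.76) and Rpl17 (0.55) lie highest and Rpl24 (-0.34) lowest.

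None of 67 was called between genotypes in B lineage cells (0.0651% of all genes), where 62 lay above 0 with a median of 0.25 against 0.01 over all genes, none of 56 in granulocytes (0%, median 0.13) and none of 62 in erythroid cells (0%, median 0.09), with 1 at an unadjusted p under 0.05 in each. DESeq2 called 0 in each of the 3. Monocytes/macrophages had too few libraries with 10 or more cells. The most positive fold in granulocytes was that of Rpl17, at 1.21 ± 0.46 (adjusted p = 0.992), with 19.8 to 158 CPM in the Pot1a wt/wt libraries and 134 to 381 CPM in the Pot1a fl/fl libraries, an overlap, and few counts (1 to 8 and 15 to 21 per library). Rps28 stood at 0.79 ± 0.38 in B lineage cells (adjusted p = 0.999), 0.67 ± 0.39 in granulocytes (0.992) and 0.76 ± 0.44 in erythroid cells (0.999), from cells that are also part of the whole marrow sums.

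Groups did not overlap for 1 of 67 genes in B lineage cells, Rpl23, higher in Pot1a fl/fl (1.17% of all genes did not overlap there), and for 0 of 56 in granulocytes (1.45%). Rpl23 was named after its values were seen. Pot1a fl/fl 2, with 6 erythroid cells, was left out of the erythroid fit.

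The summed share was higher in Pot1a fl/fl on average in each lineage, by 1.83 points in B lineage cells (12.4% ± 1.63 against 10.6% ± 0.721), 1.68 in erythroid cells, 1.5 in monocytes/macrophages and 0.415 in granulocytes, with overlap of the groups in each. It is given as a description, with no test. Among all the clusters looked at, the groups did not overlap in the unnamed cells led by Mcpt8 and Eif4h, with 9.69 to 11.5% in 3 Pot1a wt/wt libraries and 11.8 to 15.2% in 4 Pot1a fl/fl libraries. They also did not overlap in mesenchymal cells, where only Pot1a wt/wt 4, Pot1a wt/wt 5 and Pot1a fl/fl 3 had at least 5 cells. Both clusters were named after their shares were seen, and with so few libraries groups can separate by chance. Whether the genotype difference varied between lineages was tested per gene in 1 fit, and none of 69 was called (0.0888% of all genes), with none at an unadjusted p under 0.05.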

How the data were processed

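Whole bone marrow cells of 9 Drop-seq libraries were analysed. The counts per gene and barcode were deposited by the authors, who aligned reads to mm10 with STAR and counted them with the Drop-seq software. Their methods call the values read counts; the sources used here do not give the STAR version, how the 100 barcodes per library were chosen, or whether reads of one molecule were collapsed. Barcodes with at least 200 counts and at most 25% mitochondrial counts were kept. Cells were clustered in Seurat 5.3.0 (2000 variable genes, 20 components, resolution 1, libraries integrated) without the ribosomal protein genes, and clusters were named from marker genes among their 50 leading genes by a rule written after these were seen. Doublets were marked with scanpy 1.11.5 and kept.

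Counts were summed per library and lineage or stage (at least 5 cells; at least 10 cells and 3 libraries per group between genotypes) and compared by the quasi-likelihood test of edgeR 4.0.16 in R 4.3.3, after TMM scaling and filterByExpr, at a Benjamini-Hochberg adjusted p of 0.05 over all genes tested. The library was a block between lineages and stages. DESeq2 1.42.0 was an alternative. The fits were tested on simulated data. Shared words were counted in GENCODE transcripts of GRCm38.

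The genes and lists were chosen with earlier results of these data known. Genes named are the 10 of highest mean CPM, the 3 at each end of each comparison (among called genes between lineages and stages), copies with their main forms, and Rps19bp1. Some genes that this rule names are not reported here and not drawn, but stay in all counts, sums and medians. There were 0 unused columns of samples. Library depth was 119459 to 465277 counts.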

Additional observations from a re-analysis of the deposited data

Results flagged for a closer look

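Among 88 sets of libraries of one group, 2 held a library far from the others, where chance alone gives about 1 in 20. Rps28 stood at 2169 CPM in the B lineage cells of Pot1a fl/fl 3, while the other 3 Pot1a fl/fl libraries lay between 769 and 910 CPM. Rps13, a small subunit protein, stood at 426 CPM in the erythroid cells of Pot1a wt/wt 3, while the other 4 Pot1a wt/wt libraries lay between 239 and 285 CPM.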

How the results depend on the processing

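No ribosomal protein gene was called between genotypes, in whole marrow or in the 3 lineages tested, or for lineage by genotype, under any alternative run, including without any 1 library (0 to 0). The replicate numbers did not pair the libraries (correlations of 0.00, 0.01, -0.18 and -0.10 over 4225 genes), and with the replicate block the count stayed at 0, while 3 small folds changed sign: Rps29 in B lineage cells (0.08), and Rpl36a (0.11) and Rps3 (0.03) in granulocytes.

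Counts between lineages depended on the setting, in the same direction except for 1 gene that fell in erythroid cells without the filter or without Pot1a wt/wt 4 and 1 that rose in granulocytes without the filter. In B lineage cells the 27 became 8 with DESeq2 size factors, 63 with library totals, 61 without the filter, 16 without integration, 3 with each cell assigned by its markers, 10 with sums of at least 10 cells and 45 with doublets removed (18 to 28 without 1 library). In granulocytes the 7 became 12, 62, 4, 37, 32 and 23 with DESeq2 size factors, totals, no integration, cells by markers, 10 cells and doublets removed, 13 without globin and mitochondrial genes and 2 with the ribosomal genes kept in the clustering (3 to 11; 3 without Pot1a wt/wt 3, 11 without Pot1a wt/wt 4 or 5). In monocytes/macrophages the 34 became 14 with DESeq2 size factors, 2 with totals and 12 with cells by markers (22 to 40; 22 without Pot1a fl/fl 4), and in erythroid cells the 32 became 17 without the filter, 60 with cells by markers and 15 with 10 cells (19 to 35; 20 without Pot1a wt/wt 1 and 19 without Pot1a wt/wt 3).

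Between stages, late neutrophils (56 to 63) and myelocytes (52 to 60) kept their counts within 1.5 times under the alternatives run. The pre-B count of 32 became 10 without the filter, 0 with cells by markers and 15 with 10 cells (10 to 34), the globin-rich count of 46 became 7 without integration (30 to 48), and the early erythroid count of 15 against the Mt2-led cells became 26 with DESeq2 size factors, 4 without the filter, 9 without globin, 7 with Pot1a wt/wt 2 and 3 as 1 library, 5 without integration and 2 with 10 cells (4 to 11). Relative to the sum, the last had 1 with that pair as 1 library (0 to 1, the 1 gene called without Pot1a wt/wt 1 being higher), and leave-outs gave 0 to 1 in B lineage, 3 to 5 in granulocytes, 3 to 6 in monocytes/macrophages, 16 to 19 in erythroid cells, 6 to 9 in late neutrophils, 3 to 7 in myelocytes (3 without Pot1a fl/fl 1, with 2 higher), 2 to 4 in pre-B and 0 to 3 in globin-rich cells. The causes were not tested.

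The share in whole marrow was 8.85% as a mean over cells. With cells by markers it was 4.53% in late neutrophils, 11.4% in pro-B, 10.9% in pre-B and 13.7% in early erythroid cells. Leaving out 1 library gave 9.81 to 10.1% in whole marrow (difference of genotypes -0.174 to 0.492), 11.1 to 11.6 in B lineage (1.3 to 2.37), 5.74 to 6.32 in granulocytes (-0.105 to 1.05), 7.89 to 8.55 in monocytes/macrophages (0.958 to 1.95), 9.53 to 10.4 in erythroid (0.506 to 2.21), 11.5 to 12.1 in promyelocytes, 3.23 to 3.43 in myelocytes, 1.29 to 1.43 in late neutrophils, 12.8 to 13.5 in pro-B, 9.17 to 9.74 in pre-B, 11.6 to 12.1 in early erythroid, 5.3 to 6.28 in globin-rich and 14.9 to 15.5 in Mt2-led cells.

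Other folds that changed sign, none called, were Rps29 in B lineage cells (0.02 with cells by markers), Rpl36a (0.00, 0.30 and 0.33) and Rps3 (0.06, 0.08 and 0.06) in granulocytes without the filter, without integration and with cells by markers, Rpl35a (0.17), Rpl36al (0.00) and Rps13 (0.06) in erythroid cells by markers, and, with 1 library left out, Rpl5 in whole marrow (-0.32 to 0.76), Rps29 (-0.23 to 0.13) in B lineage cells and Rpl36a (-0.27 to 0.06) and Rps3 (-0.18 to 0.12) in granulocytes. The log2 fold of Rps15a in pre-B cells, which passed the test as reported, was 0.03 with cells by markers. Sums of at least 10 cells gave no value for the monocyte/macrophage, late neutrophil, myelocyte and globin-rich comparisons, cells by markers none for late neutrophils, and clusters without integration none for pre-B cells. Late neutrophils rest on 5 libraries of 5 to 10 cells, which limits genes of few counts.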
